A study of Mus musculus with 8 samples.

Results

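Macrophage and antigen presentation genes were followed in the kidneys of knock-in mice that model MUC1 kidney disease, given vehicle or the small molecule BRD4780. The list held 31 gene symbols, and a gene was a member if the table's gene column matched a symbol exactly. Of the 31 symbols, 30 were found among 21759 genes, and Adgre1, which encodes the macrophage surface receptor F4/80, was not analysed here. Of the 30, 28 had enough counts to be tested. Ms4a7 and Cd163 did not, and only their levels are given. Each of the 30 had counts in all 8 libraries, macrophage markers such as Csf1r, Cd68 and the C1q chains included.

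All animals were male, 8 months old and carried the knock-in allele of the model. The vehicle group (saline) and the BRD4780 group (50 mg/kg) had 4 libraries each, from animals dosed daily for 7 days. Sample titles call the compound AGN50. RNA came from sagittal kidney sections, so each library mixes every cell type cut, and no group without the knock-in allele was analysed here. In people the disease follows a frameshift in MUC1 whose abnormal product builds up in tubule cells, and BRD4780 is known as a ligand of TMED9, a receptor for cargo of the early secretory pathway. Values per library are CPM, counts per 1000000 counts of a library's scaled total. In bulk tissue, fewer cells of a type and less RNA per cell cannot be told apart.

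Macrophages of the kidney are a network of resident and blood-derived cells that take up debris, sense complement and antibody, and present peptides. They depend on signalling through the receptor encoded by Csf1r. Class II molecules of the major histocompatibility complex (MHC) are built from alpha and beta chains with the invariant chain CD74, and are switched on by the transactivator CIITA. In kidney they are found on macrophages, dendritic cells and B cells, and injured tubule cells can carry them too.

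Some libraries stood apart. Totals ran from 16.6 to 28.5 M counts with vehicle and from 5.74 to 28.2 M with BRD4780, with BRD4780 replicate 4 the shallowest. Across all genes, leaving out BRD4780 replicate 3 raised the number of genes past the threshold from 394 to 3184. In the members, vehicle replicate 4 was the highest library for 15 of 28, while it was the highest for 9.72% of all 13474 genes tested. Results that rest on either library are given with and without it.

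Promoters of some class II and macrophage genes are given, and all of them hold a motif marked in capitals. Promoters without a motif are not given, so the set cannot tell whether genes with similar levels across libraries share one. Each promoter is 300 bases from RefSeq on GRCm38.p6, from 250 bases before the gene start to 50 after. The letters run 5′ to 3′ on the gene's strand. In the class II pair, capitals mark the Y box CTGATTGG, a motif bound by the factor NF-Y. The promoter of H2-Aa lies on the minus strand at chr17:34287774-34288073 and that of H2-Eb1 on the plus strand at chr17:34305617-34305916.
H2-Aa: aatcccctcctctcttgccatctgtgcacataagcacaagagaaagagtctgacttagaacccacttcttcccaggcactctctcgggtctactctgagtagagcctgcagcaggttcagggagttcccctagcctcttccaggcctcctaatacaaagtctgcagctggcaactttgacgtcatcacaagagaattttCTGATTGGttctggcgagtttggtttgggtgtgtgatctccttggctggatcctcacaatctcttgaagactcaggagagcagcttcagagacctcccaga
H2-Eb1: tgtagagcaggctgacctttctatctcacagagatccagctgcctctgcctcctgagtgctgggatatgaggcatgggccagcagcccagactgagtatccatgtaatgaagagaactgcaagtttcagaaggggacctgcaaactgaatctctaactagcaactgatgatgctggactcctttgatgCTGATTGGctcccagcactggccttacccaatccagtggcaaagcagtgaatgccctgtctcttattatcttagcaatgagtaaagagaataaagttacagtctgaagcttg
The motif starts 51 bases before the H2-Aa start and 62 bases before the H2-Eb1 start. Of 32851 promoter windows in the table, 4.10% hold these letters on either strand. Among the 24 members with a window, H2-Aa and H2-Eb1 hold it.

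In the next set, capitals mark AGGAAGT or its reverse complement, a core read by ETS factors such as PU.1, the master regulator of myeloid cells. The promoter of Lyz2 lies at chr10:117282223-117282522, that of C1qb at chr4:136886151-136886450 and that of C1qc at chr4:136892865-136893164, all on the minus strand.
Lyz2: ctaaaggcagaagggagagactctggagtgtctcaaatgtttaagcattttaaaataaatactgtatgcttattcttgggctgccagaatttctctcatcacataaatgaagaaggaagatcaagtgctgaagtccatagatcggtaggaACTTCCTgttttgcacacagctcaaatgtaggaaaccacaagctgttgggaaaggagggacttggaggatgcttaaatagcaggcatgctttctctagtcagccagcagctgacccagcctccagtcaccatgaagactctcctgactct
C1qb: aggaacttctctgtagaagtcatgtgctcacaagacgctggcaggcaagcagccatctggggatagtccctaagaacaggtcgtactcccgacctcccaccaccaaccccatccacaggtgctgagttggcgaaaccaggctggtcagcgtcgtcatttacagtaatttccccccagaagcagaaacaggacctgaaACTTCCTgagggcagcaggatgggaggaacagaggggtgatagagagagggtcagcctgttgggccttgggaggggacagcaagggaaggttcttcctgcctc
C1qc: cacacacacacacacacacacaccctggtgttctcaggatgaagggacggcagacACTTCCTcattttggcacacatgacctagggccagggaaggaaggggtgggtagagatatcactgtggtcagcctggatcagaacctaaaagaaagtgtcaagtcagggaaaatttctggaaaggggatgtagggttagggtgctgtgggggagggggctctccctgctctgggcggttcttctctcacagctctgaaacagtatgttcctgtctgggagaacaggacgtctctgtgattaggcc
These letters stand in 7 of the 24 members with a window (C1qb, C1qc, Ctss, Fcgr1, Lyz2, Mrc1 and Ptprc) and in 9.35% of all windows, on either strand. All 3 promoters hold it on the opposite strand, and none of the 5 promoters shown holds both motifs. For both motifs a member counts once if any of its windows holds the letters, while the share of all windows counts every window. A match is a description of the letters and not a bound site.

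Class II genes dominated the levels. To compare genes with each other, CPM was divided by the length of the longest coding transcript in kilobases (kb). On that per-length scale the vehicle mean was 425 CPM per kb for Cd74, 200.3 for H2-Ab1, 101 for H2-Aa and 61.6 for H2-Eb1. Class II genes together made up between 77.4% and 90.04% of the summed per-length level of all 30 members in a library, and the low end was vehicle replicate 4.

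**Figure D1:**
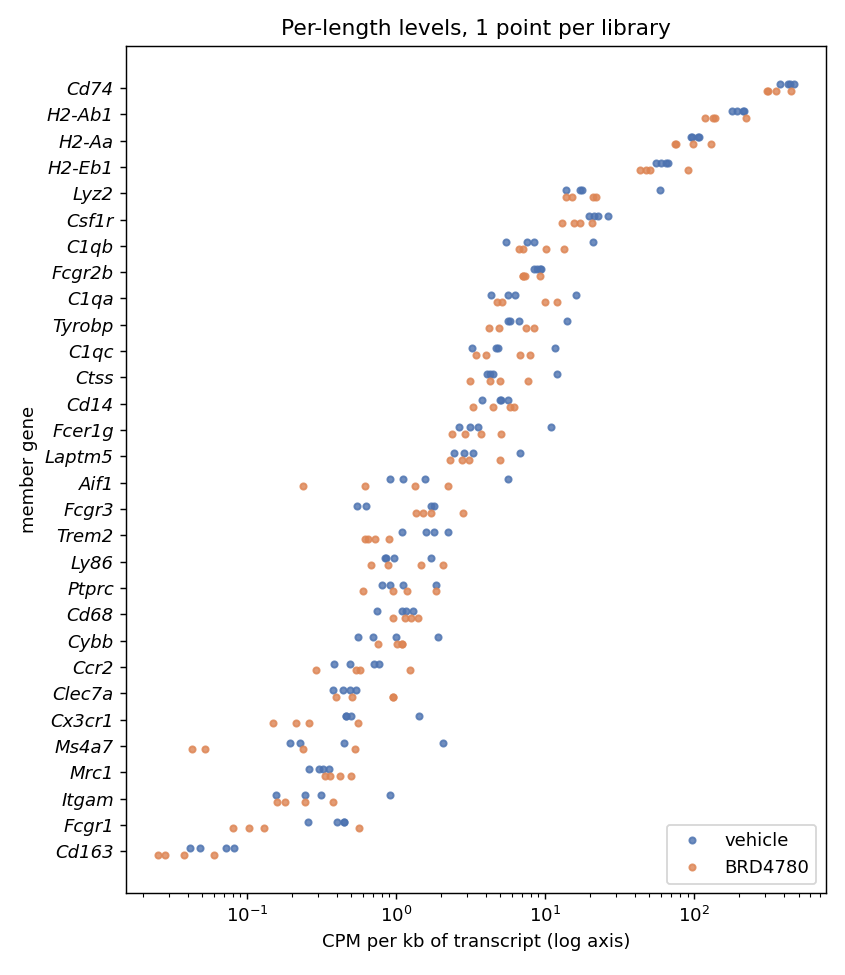
Per-length levels (CPM per kb, log axis) of the 30 members, with 1 point per library, vehicle in blue and BRD4780 in orange. Cd74, H2-Ab1, H2-Aa and H2-Eb1 lie above all other members in the vehicle means, and Cd163 lies at the bottom.

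The next levels belonged to Lyz2, which encodes lysozyme, at 26.8 CPM per kb with vehicle, and to Csf1r at 22.4. C1qb followed at 10.6 and Fcgr2b at 8.95. Other genes of macrophage identity were far lower, with vehicle means of 1.07 CPM per kb for Cd68 (a lysosomal glycoprotein), 0.711 for Cx3cr1 (the fractalkine receptor) and 0.407 for Itgam (integrin alpha M). The per-length level of Csf1r was between 10.3 and 28.2 times that of Cd68 in each of the 8 libraries. Exons of Csf1r overlap those of Hmgxb3 on the opposite strand over 873 bases, the libraries came from a stranded kit per the labels, and the sources used here do not give whether the counting used strand. Hmgxb3 stood at 36.2 to 45.4 CPM in the 8 libraries, with a log2 fold change of 0.01 (adjusted p = 0.944), and its part in the Csf1r level was not tested. Exons of Cx3cr1 and Fcgr2b overlap opposite-strand genes over 78 and 155 bases. Itgam shares 3450 bases with a same-strand gene model, so its counts are less certain.

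No member passed the threshold in the comparison of BRD4780 with vehicle. By edgeR's quasi-likelihood test 0 of 28 had an adjusted p under 0.05, against 2.92% of all genes tested. Members higher and members lower were 0 each, against 2.30% and 0.623% of all genes. At an unadjusted p under 0.05, 4 members were lower (Csf1r, Cx3cr1, Trem2 and H2-Ab1) and 0 were higher, against 10.7% and 13.9% of all genes. DESeq2 called 2, Csf1r and Trem2, where it called 10.2% of all genes. The log2 fold change was negative in 21 of 28 members, against 48.4% of all genes, with a median of -0.21 against 0.01.

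Both outlying libraries moved that count. Without vehicle replicate 4 the members' median was 0.15, with 10 negative and 18 positive, and 0 were called. Without BRD4780 replicate 3 the median was -0.43, and 8 members were called lower and 0 higher (Cd74, Csf1r, Cx3cr1, Fcgr1, Fcgr2b, H2-Ab1, H2-Eb1 and Trem2), where 11.3% of all genes were called lower. Those runs called 1.70% and 23.5% of all genes in either direction. Leaving out any other single library called 0 members, and 0.472%, 0.229% and 0.637% of all genes without vehicle replicates 1, 2 and 3, and 0.485%, 0.488% and 0.607% without BRD4780 replicates 1, 2 and 4. With 0 members called, DESeq2 size factors called 2.77% of all genes, upper-quartile scaling 2.64%, no filter 2.42%, thinning to the smallest library 2.59% and a replicate block on the title numbers 1.09%.

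**Figure D2:**
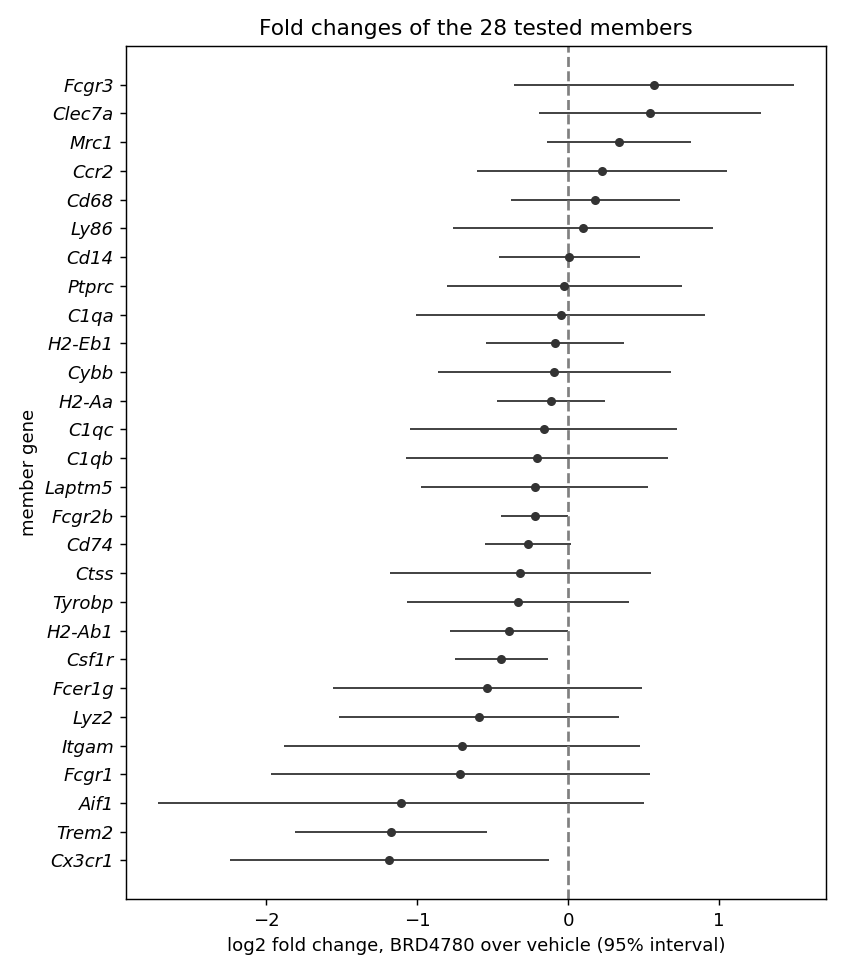
Log2 fold changes (BRD4780 over vehicle, all 8 libraries) of the 28 tested members with 95% intervals from the edgeR fit. The intervals of 24 members include 0, and those of Csf1r, Cx3cr1, Trem2 and H2-Ab1 lie below it.

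The precision differed widely between members. Intervals lay within 1 log2 unit of 0 in 13 of 28, among them all 4 class II genes. For Aif1, which encodes an actin-binding protein of activated macrophages, the interval reached from -2.71 to 0.51.

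Trem2 came nearest to the threshold. It encodes a lipid-sensing receptor of macrophages and lies on chromosome 17, 48346401 to 48354147 (plus strand, mm10). Its levels were 1.18, 1.73, 1.95 and 2.41 CPM in vehicle replicates 1 to 4 and 0.786, 0.705, 0.976 and 0.669 CPM in BRD4780 replicates 1 to 4. Every BRD4780 library was below every vehicle library, and no other tested member had groups that did not overlap (12.6% of all genes did). The log2 fold change was -1.17 ± 0.29 (SE, n = 4 each; adjusted p = 0.0567). It was below 0 under every alternative that could test it, down to -1.46, with adjusted p-values from 0.0171 to 0.170. The 8 libraries held 238 counts of Trem2 in all, so counting error is large, and after thinning to the smallest library it was too low to test.

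Its neighbours in function differed in level and spread. Mrc1, the mannose receptor of tissue macrophages, stood between 1.40 and 1.90 CPM under vehicle and between 1.80 and 2.68 CPM under BRD4780 (log2 fold change 0.34 ± 0.22 SE, n = 4 each; adjusted p = 0.355). The groups overlapped. Cd163, the haemoglobin scavenger receptor, had 40 counts over all libraries and stood at 0.272 ± 0.0861 CPM under vehicle and 0.168 ± 0.0709 CPM under BRD4780 (SD, n = 4 each), below what could be tested.

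Csf1r, the growth factor receptor on which macrophages depend, was measured at 106, 99.2, 92.3 and 123 CPM under vehicle and at 80.2, 60.5, 96.1 and 73.1 CPM under BRD4780. BRD4780 replicate 3 lay within the vehicle range, and the other treated libraries lay below it. Group means were 105 ± 13.4 and 77.5 ± 14.9 CPM (SD, n = 4 each), a log2 fold change of -0.44 ± 0.14 (SE; adjusted p = 0.0981). Without BRD4780 replicate 3 the log2 fold change was -0.57 (adjusted p = 0.00877).

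Cx3cr1 stood at 2.23, 2.06, 2.07 and 6.42 CPM under vehicle and at 0.952, 1.17, 2.48 and 0.669 CPM under BRD4780. The value in BRD4780 replicate 4 rests on 4 counts. Vehicle replicate 4 was about 3.03 times the mean of the other vehicle libraries, and BRD4780 replicate 3 overlapped the vehicle range. The log2 fold change was -1.18 ± 0.48 (SE, n = 4 each; adjusted p = 0.166). Leaving out vehicle replicate 4 gave -0.59 (adjusted p = 0.362), and leaving out BRD4780 replicate 3 gave -1.68, past the threshold (adjusted p = 0.0298).

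Other genes of macrophage identity carried the mark of single libraries. Itgam stood at 1.15, 0.737, 1.46 and 4.27 CPM under vehicle, against 0.745 to 1.77 CPM under BRD4780. Aif1 was at 0.790, 1.36, 0.974 and 4.96 CPM under vehicle and between 0.207 and 1.95 CPM under BRD4780. Ms4a7, a marker of mature macrophages, was at 3.23 CPM in vehicle replicate 4 and between 0.0671 and 0.837 CPM in the other 7 libraries. In all of these the same vehicle library was the highest. Without it the log2 fold change of Itgam went from -0.70 to 0.083 and that of Aif1 from -1.10 to -0.15. Laptm5, a lysosomal membrane protein of blood cells, stood at 6.33 to 17.6 CPM under vehicle and 6.01 to 12.9 CPM under BRD4780. Ptprc, the pan-leukocyte phosphatase CD45, reached 9.40 CPM in vehicle replicate 4 and 9.35 CPM in BRD4780 replicate 3, against 3.05 to 5.96 CPM elsewhere. Ccr2, the chemokine receptor of recruited monocytes, was highest in BRD4780 replicate 3 at 7.09 CPM and lay between 1.67 and 4.41 CPM in the others. Cd68 was steady, between 0.921 and 1.73 CPM over all libraries. Adjusted p-values of these 6 tested genes (all but Ms4a7) lay between 0.366 and 0.977.

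**Figure D3:**
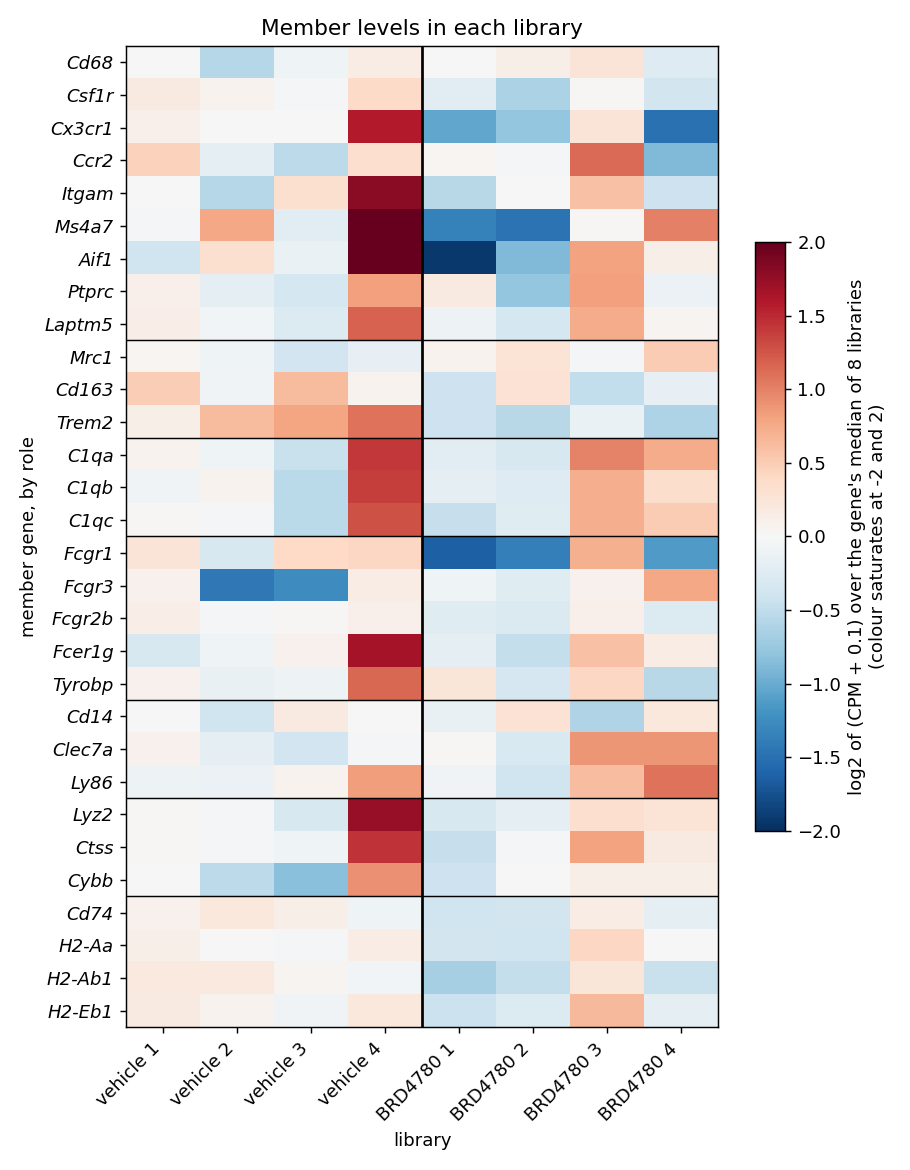
Levels of the 30 members in each library as log2 of (CPM + 0.1) over the gene's median of the 8 libraries, grouped by role, with vehicle on the left of the black line. Vehicle replicate 4 is the deepest red in the Cx3cr1, Itgam, Ms4a7, Aif1, C1q, Fcer1g, Lyz2 and Ctss rows, while H2-Aa, H2-Ab1 and H2-Eb1 are reddest in BRD4780 replicate 3.

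The 3 chains of C1q, which starts the classical complement pathway and is made in tissues mainly by macrophages, kept close company. C1qa was measured at 6.53, 5.86, 4.51 and 16.6 CPM under vehicle and at 5.34, 4.97, 12.4 and 10.4 CPM under BRD4780. C1qb stood at 8.22, 9.13, 5.97 and 22.7 CPM under vehicle and at 7.66, 7.21, 14.4 and 11.04 CPM under BRD4780. C1qc ran from 3.90 to 13.9 CPM under vehicle and from 4.10 to 9.54 CPM under BRD4780. In each chain vehicle replicate 4 was highest, at 2.95, 2.92 and 2.72 times the mean of the other vehicle libraries for C1qa, C1qb and C1qc, and BRD4780 replicate 3 came second. Their log2 fold changes were -0.05, -0.20 (± 0.39 SE, n = 4 each) and -0.16 over all libraries and 0.52, 0.36 and 0.35 without vehicle replicate 4, short of the threshold in both (adjusted p from 0.785 to 0.959, and from 0.367 to 0.518 without it).

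The same library led the effector genes. Lyz2 (chromosome 10, 117277331 to 117282321, minus strand, mm10) stood at 23.1, 22.5, 18.2 and 77.0 CPM under vehicle and at 18.3, 19.9, 28.9 and 27.6 CPM under BRD4780. Vehicle replicate 4 was 3.62 times the mean of the other vehicle libraries, and the log2 fold change of -0.59 ± 0.42 (SE, n = 4 each; adjusted p = 0.401) was 0.14 without it (adjusted p = 0.675). Ctss, cathepsin S, which trims the invariant chain for class II loading, was at 16.3 CPM in vehicle replicate 4 and between 4.26 and 10.4 CPM in the others. Cybb, the catalytic subunit of the phagocyte NADPH oxidase, reached 9.10 CPM there and lay between 2.64 and 5.22 CPM elsewhere.

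Antibody receptors and their adaptors were split. Fcer1g, the shared gamma chain, stood at 1.79, 2.12, 2.41 and 7.41 CPM under vehicle and at 1.61 to 3.46 CPM under BRD4780. Tyrobp, the adaptor DAP12 that TREM2 signals through, stood at 3.98, 3.35, 3.47 and 8.37 CPM under vehicle and at 2.51 to 5.00 CPM under BRD4780. Both adaptors were highest in vehicle replicate 4, while the receptor genes were not. Without that library their log2 fold changes went from -0.53 to 0.17 for Fcer1g and from -0.33 to 0.081 for Tyrobp. Fcgr2b, the inhibitory receptor, had a narrow range, at 29.8 to 33.3 CPM under vehicle and at 25.7, 25.0, 32.6 and 25.1 CPM under BRD4780. Its log2 fold change was -0.22 ± 0.10 (SE, n = 4 each; adjusted p = 0.208), and -0.33 without BRD4780 replicate 3 (adjusted p = 0.0145). Fcgr1, the high-affinity receptor, stood at 0.663 to 1.16 CPM under vehicle and at 0.207, 0.268, 1.46 and 0.335 CPM under BRD4780. Replicate 3 was above every vehicle library and the other treated libraries were below all of them. Without replicate 3 the log2 fold change was -1.96 (adjusted p = 0.00668). That fit rests on only 5, 8 and 2 counts in the treated libraries left, of 147 in all libraries together. Fcgr3, a low-affinity activating receptor, had a log2 fold change of 0.57 ± 0.42 (SE, n = 4 each; adjusted p = 0.418).

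Of the 3 sensors of microbial patterns, none had its highest level in vehicle replicate 4. Cd14, the lipopolysaccharide co-receptor, stood at 7.97 ± 1.27 CPM under vehicle and 8.09 ± 2.16 CPM under BRD4780 (SD, n = 4 each), a log2 fold change of 0.01 with an interval from -0.46 to 0.47. Clec7a, the beta-glucan receptor dectin-1, was at 2.18 CPM in BRD4780 replicates 3 and 4, from 58 and 13 counts. All other libraries lay between 0.853 and 1.22 CPM (log2 fold change 0.54 ± 0.33 SE, n = 4 each, adjusted p = 0.330). Ly86, a partner of the RP105 receptor, stood at 0.969, 0.958, 1.10 and 1.94 CPM under vehicle and ranged from 0.772 to 2.34 CPM under BRD4780 (adjusted p = 0.900).

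Class II genes followed another pattern across libraries. Cd74 stood at 598, 654, 613 and 533 CPM under vehicle and at 430.0, 438, 629 and 495 CPM under BRD4780. H2-Ab1 (chromosome 17, 34257689 to 34269419, plus strand, mm10), the beta chain of the I-A molecule, stood at 259, 259, 236 and 217 CPM under vehicle and at 142, 163, 269 and 166 CPM under BRD4780. In both genes vehicle replicate 4 was the lowest of its group, and BRD4780 replicate 3 lay within or above the vehicle range while the other treated libraries lay below it. H2-Aa, the I-A alpha chain, was at 108 to 122 CPM under vehicle and at 84.8, 83.1, 145 and 110.3 CPM under BRD4780. H2-Eb1, the I-E beta chain, was at 91.8 to 111 CPM under vehicle and at 71.6, 79.3, 151 and 84.0 CPM under BRD4780. Both had their highest level in BRD4780 replicate 3.

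Fold changes in this group were small. H2-Ab1 had a log2 fold change of -0.39 ± 0.18 (SE, n = 4 each; adjusted p = 0.203) and Cd74 of -0.27 ± 0.13 (SE, n = 4 each; adjusted p = 0.224). For H2-Aa and H2-Eb1 it was -0.11 and -0.09 (adjusted p = 0.706 and 0.834). Without BRD4780 replicate 3, H2-Ab1 was at -0.63 (adjusted p = 0.00132), Cd74 at -0.40 (adjusted p = 0.00930) and H2-Eb1 at -0.40 (adjusted p = 0.0106), and H2-Aa at -0.31 (adjusted p = 0.0533). With all 8 libraries in a limma voom fit with sample weights, in which BRD4780 replicate 3 had the lowest weight, 6 members were called lower (Cd74, Csf1r, Fcgr1, Fcgr2b, H2-Ab1 and Trem2), where 11.1% of all genes were lower and 23.4% were called in either direction.

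Class II levels were set beside proximal tubule markers. The summed level of the class II genes was 1083, 1123, 1048 and 983 CPM under vehicle and 729, 763, 1195 and 856 CPM under BRD4780. The summed level of 10 proximal tubule markers was 14448, 14492, 15373 and 15109 CPM under vehicle and 12725, 11268, 18283 and 12193 CPM under BRD4780. BRD4780 replicate 3 was the highest library in both sums and the other treated libraries were the lowest in both. Within the groups the orders otherwise differed, since vehicle replicates 3 and 4 had the highest tubule sums and the lowest class II sums of their group. The part of tubule content in the class II values was not tested. The sum of C1qa, C1qb, C1qc and Lyz2 had another order, with 130.2 CPM in vehicle replicate 4 and between 32.6 and 65.2 CPM elsewhere.

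**Figure D4:**
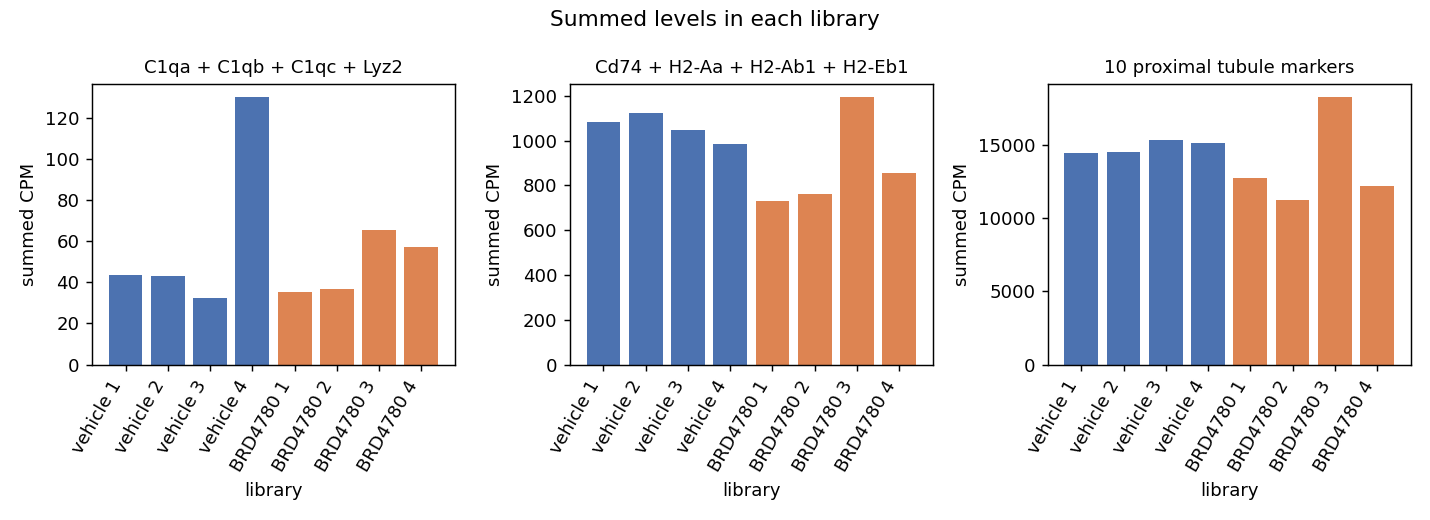
Summed CPM in each library of C1q chains with Lyz2 (left), class II genes (middle) and 10 proximal tubule markers (right), with vehicle in blue and BRD4780 in orange. The left sum peaks at 130.2 CPM in vehicle replicate 4, and the other sums peak at 1195 and 18283 CPM in BRD4780 replicate 3.

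Markers of other white blood cells had low summed levels. Summed levels of the 6 B and plasma cell markers in the table were 2.85 to 5.56 CPM under vehicle and 2.22 to 4.69 CPM under BRD4780, and the B cell genes Ms4a1 and Pax5 reached at most 0.184 and 0.147 CPM. The 9 T cell markers summed to 1.95 to 4.56 CPM and 2.11 to 7.02 CPM, the 6 NK markers to 0.853 to 1.80 CPM and 0.436 to 2.25 CPM, and the 8 neutrophil markers to 2.62 to 4.79 CPM and 1.83 to 5.65 CPM. Dendritic cell markers summed to 4.24 to 5.85 CPM and 5.19 to 8.94 CPM, and mast cell markers to 14.7 to 17.4 CPM and 12.0 to 16.6 CPM, of which Kit, also made by other kidney cells, gave most. Of these 6 lists none had a member past the threshold, and of the NK list 0 genes had enough counts to be tested. All 5 tested dendritic cell markers had a positive log2 fold change (median 0.58), with Flt3, the receptor for their growth factor, at 1.33 ± 0.45 (SE, n = 4 each; adjusted p = 0.114). The neutrophil granule genes Mpo and Elane were at 0 in 7 of 8 libraries each.

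Vehicle replicate 4 was over 1.5 times the mean of the other vehicle libraries in 15 of 28 tested members, against 3.82% of all genes. C1q chains and Lyz2 were among the 15, while Mrc1, Cd14 and Fcgr2b were at 0.976, 1.03 and 1.04 times that mean. In this library the 12 endothelial markers summed to 216 CPM. They summed to 330 to 402 CPM in the other vehicle libraries and to 476 to 601 CPM under BRD4780. The 10 podocyte markers summed to 71.5 CPM there, against 121 to 161 CPM in the other vehicle libraries. Erythroid markers summed to 1576 CPM there, to 477 to 1449 CPM in the other vehicle libraries and to 154 to 782 CPM under BRD4780. All 3 tested erythroid markers were lower at an unadjusted p under 0.05, against 10.7% of all genes. The median log2 fold change of the 3 was -1.39, and 0 passed the threshold. Adipocyte markers, of a tissue rich in macrophages, summed to 149 CPM there, inside the vehicle range of 85.6 to 253 CPM, and to 56.8 to 179 CPM under BRD4780. Their median log2 fold change was -1.77 over 6 tested. Of the 6, 2 were lower at an unadjusted p under 0.05, against 10.7% of all genes, and 0 passed the threshold. The part of these cell contents in the macrophage values was not tested.

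Beyond the members, lists of the surrounding pathway were set beside the 2.92% of all genes called in either direction. At that share, 0 calls in a list this short tell little. Of 13 tested class II pathway genes 0 were called, and the pair with the smallest p-values were Rfxank and Rfx5, subunits of the factor that binds class II promoters, at log2 fold changes of 0.22 and 0.21 (adjusted p = 0.182 and 0.261). Of 15 class I presentation genes 0 were called. In that list the chaperones Calr (-0.45, adjusted p = 0.0589) and Pdia3 (-0.34, adjusted p = 0.0621), which also serve general protein folding, had the smallest p-values. Median log2 fold changes of these lists were 0.04 and 0.10.

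Of 9 myeloid transcription factor genes 1 was called higher, Cebpb, against 2.30% of all genes. It went from 5.54 ± 0.497 to 12.6 ± 3.90 CPM (SD, n = 4 each), a log2 fold change of 1.17 ± 0.23 (SE, adjusted p = 0.0315). C/EBP beta is also made in tubule and stromal cells. Among 12 genes of phagocytic signalling 0 were called, with Inpp5d, the phosphatase SHIP1, at 0.76 (adjusted p = 0.0593) and Sirpa, the receptor of the CD47 signal, at -0.29 (adjusted p = 0.107).

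No gene was called in the lists of NADPH oxidase partners (5 tested, median -0.52), growth factors and chemokines (8 tested, median -0.07), other complement genes (13 tested, median -0.09), inflammatory cytokines (6 tested, median -0.23) or interferon-induced genes (14 tested, median 0.05). In the cytokine list all 6 tested members had a negative fold change. Il1b, a cytokine of activated macrophages, stood at 1.32 ± 0.372 CPM under vehicle and 0.624 ± 0.405 CPM under BRD4780 (SD, n = 4 each). Its groups did not overlap, as in 12.6% of all genes, and its adjusted p was 0.188. Complement C3, which tubule cells also make, had a log2 fold change of 0.97 ± 0.35 (SE, n = 4 each; adjusted p = 0.129).

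Among markers of resident kidney cells, 4 of 12 endothelial markers were higher (Flt1, Egfl7, Eng and Robo4). So were 4 of 10 podocyte markers (Nphs1, Podxl, Ptpro and Cdkn1c), against 2.30% of all genes. Lower were 3 of 8 thick ascending limb markers (Kcnj1, Cldn19 and Bsnd), against 0.623% of all genes. Nephrin, encoded by Nphs1, went from 4.80 ± 2.02 to 19.7 ± 3.74 CPM (SD, n = 4 each; adjusted p = 0.0114). No marker of proximal tubule (10 tested, median -0.08), collecting duct (7, median -0.16) or fibroblast and mural cells (10, median 0.07) was called.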

How the data were processed

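Bulk kidney RNA was sequenced in 8 libraries (4 vehicle, 4 BRD4780). The deposited values are expected counts per gene, not normalized, of which 15.1% to 28.9% per library are not whole. Per the submitters' processing notes, STAR 2.5.2b, RSEM 1.3.0, Picard and the builds mm10 and hg19 are named with no role; the sources used here do not give annotation, read filters or strand setting. A set of 343 symbols on several identical lines, Trem2 among them, was collapsed, leaving 21759 of 22121 rows. A further 1 column of values belonged to no analysed sample and was left out.

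Expected counts were rounded, filtered with filterByExpr (minimum count 10), scaled by TMM and tested with the quasi-likelihood test of edgeR 4.0.16 in R 4.3.3 over all 8 libraries, with Benjamini-Hochberg adjustment over 13474 genes and a threshold of 0.05. Adjusted p-values come from that test unless DESeq2 1.42.0 or limma 3.58.1 is named. Intervals are 95%. A count of 0 allows up to 3 counts, or 0.101 to 0.502 CPM by library, for counting error only. Coordinates and transcript lengths are from GENCODE M21 (GRCm38, mm10). The test was checked on simulated data. Replicate numbers follow deposition order and pair nothing; numbers in the titles were tried as a block. The labels do not say outright that each library is a separate mouse, so p-values measure the spread between these samples, which may be technical.

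All 31 symbols are named, with full statistics for the members that results turn on. From the other lists, called genes and the 2 smallest p-values may be named. Genes outside that rule are named for their levels and were chosen after their values were seen. Members and lists were chosen with earlier results of these data known. No list was tested as a set. Alternatives were other scalings, no filter, thinning to the smallest library, other tools and leaving out each library.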

Additional observations from a re-analysis of the deposited data

Results flagged for a closer look

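Within each group of 4 libraries, the highest or lowest library was set against the others by Dixon's criterion (the gap to the nearest library over the range of the group), for 60 groups of member values. Chance marks about 1 in 20 such groups, and 12 were marked. Vehicle replicate 4 was far above the other vehicle libraries in 9 genes. There Cx3cr1 stood at 6.42 CPM, Ms4a7 at 3.23, Aif1 at 4.96, C1qa at 16.6, Fcer1g at 7.41, Tyrobp at 8.37, Ly86 at 1.94, Lyz2 at 77.0 and Ctss at 16.3 CPM. BRD4780 replicate 3 was far above the other treated libraries in 3 genes, with Fcgr1 at 1.46 CPM, Fcgr2b at 32.6 and H2-Eb1 at 151 CPM. The members of each set share 1 library, so these marks are not independent of each other.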

How the results depend on the processing

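Of 412 fold changes of single members under the alternatives, 362 kept their direction and their side of the threshold, 16 became calls and 34 changed sign, with adjusted p-values of at least 0.367 in those 34. Over all genes, 310 were higher and 84 lower. DESeq2 gave 850 and 505, and limma voom with sample weights 1655 and 1501. Leaving out 1 library gave 26 to 1647 higher and 5 to 1537 lower, where the upper ends are without BRD4780 replicate 3, and the cause was not tested. Members called lower were 0 in the test reported, 2 by DESeq2, 6 by limma voom and 0 to 8 with 1 library left out. The members' median ran from -0.43 to 0.15 with 1 library left out. Other scalings, no filter and thinning called 0 members, and thinning left 20 testable.

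Some signs changed. With 1 library left out, log2 fold changes ranged from -0.39 to 0.52 for C1qa, -0.47 to 0.36 for C1qb, -0.45 to 0.35 for C1qc, -0.64 to 0.23 for Ctss, -0.30 to 0.38 for Cybb, -0.82 to 0.17 for Fcer1g, -1.02 to 0.083 for Itgam, -0.53 to 0.20 for Laptm5, -0.81 to 0.14 for Lyz2, -0.39 to 0.28 for Ptprc, -0.50 to 0.081 for Tyrobp, -0.40 to 0.036 for H2-Eb1, -0.26 to 0.40 for Ccr2, -0.14 to 0.17 for Cd14 and -0.12 to 0.40 for Ly86. Cd14 was at -0.0012 with DESeq2 size factors and -0.0049 with DESeq2, and limma voom put Ccr2 at -0.18 and Cybb at 0.10. The labels give no replicate numbers, but sample titles start with 6 numbers, 2 of them in both groups, whose meaning is not given. Libraries with the same number had deviations from their group means that correlated at -0.0097 and -0.30 across genes. Pairs with different numbers ran from -0.27 to 0.28. With 2 such pairs, whether the samples share more than a number cannot be told. A fit with these numbers as a replicate block, chosen after seeing the data, estimates treatment from those 2 pairs alone. The pairs are vehicle replicate 2 with BRD4780 replicate 1, and vehicle replicate 4 with BRD4780 replicate 2. The estimate thus leaves out BRD4780 replicate 3 but keeps vehicle replicate 4, the highest library for 15 of 28 members. The block fit called 57 genes higher, 90 lower and 0 members, with a members' median of -0.65. It put Ccr2 at -0.088, Clec7a at -0.042 and Ly86 at -0.66.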

Other observations

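Some genes of the immune response outside the macrophage list were highest in BRD4780 replicate 3. These were chosen after their values were seen. The class II transactivator gene Ciita stood at 5.71 CPM there and between 1.17 and 4.09 CPM in the other 7 libraries. The immunoproteasome genes Psmb8 and Psmb9 stood at 17.4 and 6.15 CPM, against 5.97 to 9.91 CPM and 1.89 to 2.91 CPM elsewhere. B2m, the light chain of class I molecules, was at 462 CPM against 297 to 335 CPM. The T cell receptor gene Cd3e was at 1.05 CPM against 0.166 to 0.429 CPM, and Nkg7, of cytotoxic granules, at 1.01 CPM against 0.0335 to 0.552 CPM. In vehicle replicate 4, where C1q and Lyz2 peaked, Ciita was at 3.92 CPM, Psmb8 at 8.54, B2m at 299 and Cd3e at 0.287 CPM, all inside the range of the other vehicle libraries.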
